A study of Mus musculus with 6 samples.

Results

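ATF4 binding inside exons was examined in mouse embryonic fibroblasts (MEFs) that were deprived of leucine. The peaks described here are all those that the authors' annotation placed in an exon or a 5' UTR, 1135 of the 17462 peaks of 4 peak lists. They comprised 1071 exon peaks and 64 5' UTR peaks. The lists came from ChIP-seq with an ATF4 antibody (sc-200) in primary MEFs of the strain 129S6/SvEvTac. Wild-type (WT) and GCN2-/- (GCN2 KO) cells were kept for 24 h in complete DMEM (+Leu) or in DMEM lacking leucine (-Leu). Each condition had 1 library, of chromatin pooled over 2 independent experiments, so differences between conditions could not be set against a spread between replicates, and no p-value is given.

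Uncharged tRNAs activate the kinase GCN2 when amino acids run short. GCN2 phosphorylates eIF2α, which lowers general translation and raises translation of the ATF4 mRNA. ATF4 is a bZIP transcription factor that pairs with C/EBP proteins at composite sites of the form TGATGCAA and is known for inducing amino acid synthesis, transport and tRNA charging genes. Such sites are known in promoters and introns, and also in transcribed sequence just downstream of transcription start sites (TSSs), where a 5' UTR or a coding exon can hold them.

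The peak lists carry no expression values, so neither the cell type nor the loss of GCN2 could be checked from them. The label of the peaks could be checked. The transcript named for a peak was placed on the reference at 1116 of the 1135 peaks, and the peak center then lay in coding sequence for every exon peak and in the 5' UTR for every 5' UTR peak. The word exon therefore stands for a coding exon below. Each peak is a window of 301 bases around the summit, and its score is the peak caller's, with a lowest value of 13 and no scaling between libraries. The depth of the libraries is unknown. Intervals in parentheses are 95% intervals of counting error over peaks within 1 library, Wilson intervals for shares and order-statistic intervals for medians. For the -Leu libraries the peak caller's control was input chromatin of the same genotype grown with leucine, so the effect of leucine cannot be told apart from that of the unmatched input.

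In WT MEFs, 284 of 4850 +Leu peaks and 375 of 6374 -Leu peaks lay in exons or 5' UTRs. In GCN2 KO MEFs the numbers were 264 of 3566 with leucine and 212 of 2672 without it. The ratio of -Leu to +Leu was therefore 1.32 in WT (1.13 to 1.54) and 0.803 in GCN2 KO (0.670 to 0.962). All other peaks gave nearly the same ratios, 1.31 in WT (1.26 to 1.37) and 0.745 in GCN2 KO (0.707 to 0.785). Exon and 5' UTR peaks thus followed the length of their lists. When each list was held to its 2672 strongest peaks, there were 147 exon and 5' UTR peaks in WT with leucine and 118 without, a ratio of 0.803 (0.630 to 1.02). In GCN2 KO there were 198 with leucine and 212 without, a ratio of 1.07 (0.882 to 1.30), and both intervals included 1.

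As a share of the list, exon and 5' UTR peaks made up 5.86% of WT +Leu (5.23 to 6.55) and 5.88% of WT -Leu (5.33 to 6.49). They made up 7.40% of GCN2 KO +Leu (6.59 to 8.31) and 7.93% of GCN2 KO -Leu (6.97 to 9.02). Within each genotype the share with leucine lay inside the interval of the share without it and the reverse, and both GCN2 KO shares were above the WT intervals. Coding exons and 5' UTRs of curated RefSeq mRNAs cover 1.48% of the assembled chromosomes. By that annotation, without the precedence that the lists give to promoters, 6.84%, 7.10%, 8.26% and 9.07% of the peaks of the lists, in the order in which they were just given, had their center in such sequence. These shares were 4.63 times (4.18 to 5.14), 4.81 times (4.40 to 5.26), 5.59 times (5.01 to 6.24) and 6.14 times (5.44 to 6.92) the share of bases. The bases were all those of the assembled chromosomes, with gaps and stretches where short reads do not align to 1 place. The part of alignment, GC content and input background in these ratios was not tested. The 5' UTR class held 17 peaks in WT with leucine and 22 without, and 13 in GCN2 KO with leucine and 12 without. Where values for the lists follow each other below without names, WT comes before GCN2 KO and, within each, +Leu before -Leu.

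The sequences that carry the ATF4 motif are shown first, because few exon or 5' UTR peaks had it. TGATGCAA was searched on both strands within 50 bp of the peak center, and the windows below hold the motif in capitals with 11 bases of mm10 sequence (RefSeq, GRCm38) on each side, written 5′ to 3′ on the strand of the motif. In the following 4 genes the motif lay in the 5' UTR window of the peak.
Mars, chr10:127311638-127311667, plus strand: ggagcccacgcTGATGCAAtcggaaccggc
Bcat1, chr6:145076026-145076055, minus strand: ccagtcgctgcTGATGCAAtccgcagcgga
Cass4, chr2:172393889-172393918, minus strand: ccagggaccaaTGATGCAAtatcactgcat
Slc6a9, chr4:117835385-117835414, plus strand: cctcgggaggcTGATGCAActttcccttta
The motif base nearest the TSS lay 130 bp downstream of it in Mars, 113 bp in Bcat1, 106 bp in Cass4 and 138 bp in Slc6a9. Its middle lay 3.5 bp from the Mars peak center in WT +Leu and 59.5 bp from that of Slc6a9, which is outside the limit of 50 bp. In Trim66 and Slc1a4 a 5' UTR peak of 1 list shared its site with a promoter peak of another list, and the motif lay within the promoter peak.
Trim66, chr7:109493738-109493767, plus strand: cgtaggaagaaTGATGCAAtctgggtatca
Slc1a4, chr11:20332699-20332728, plus strand: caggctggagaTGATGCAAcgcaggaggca
It was 158.5 bp from the center of the Trim66 5' UTR peak and 195.5 bp from that of Slc1a4.

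The windows of 6 genes whose exon peaks had the motif within 50 bp follow, those of Adm2, Tent4b, Eif4g2, Atp2a3, Gpr37 and Otud7b.
Adm2, chr15:89323312-89323341, minus strand: gtagaggaggcTGATGCAAccgagggttac
Tent4b, chr8:88255103-88255132, plus strand: tgttaggattcTGATGCAAcgccatgcaaa
Eif4g2, chr7:111080190-111080219, minus strand: aaagaacgacaTGATGCAAtcttcaggaaa
Atp2a3, chr11:72975185-72975214, minus strand: agggctttgccTGATGCAAtattggtgccc
Gpr37, chr6:25669356-25669385, plus strand: attctcagggaTGATGCAAaacccatataa
Otud7b, chr3:96155212-96155241, plus strand: tagccaggaggTGATGCAAagcctgagcac
The exon peaks of Tent4b and Gpr37 were centered 3.5 bp and 0.5 bp from the middle of the motif, and that of Otud7b 39.5 bp from it. The base after the motif was T at 5 of the 10 distinct sites within 50 bp of an exon or 5' UTR peak (50.0%, 23.7 to 76.3), and at 191 of 470 sites of all other peaks (40.6%, 36.3 to 45.1).

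The motif was rare in exon peaks. The 8 exon peaks that had it within 50 bp were 1 peak each of Tent4b, Eif4g2, Atp2a3, Gpr37, Otud7b and 9430020K01Rik, and the peaks of Adm2 in both lists that held it. It lay within 50 bp of the center at 0 of 267 exon peaks in WT +Leu, a count that allows a share of up to 1.42% by the Wilson interval. It was found at 6 of 353 in WT -Leu (1.70%, 0.781 to 3.66), and in GCN2 KO at 1 of 251 with leucine and 1 of 200 without. Among the peaks in neither an exon nor a 5' UTR the shares were 2.83%, 7.23%, 1.10% and 1.14%. The exon share was below that of these other peaks by 2.83 percentage points in WT +Leu (difference -2.83, Newcombe interval -3.35 to -1.35). In WT -Leu the difference was -5.53 points (-6.68 to -3.48). In both GCN2 KO lists the interval of the difference included 0. Of all bases in coding exons and 5' UTRs, 0.238% have the motif within 50 bp, so the WT -Leu exon share lay above that of exon sequence at large. The windows of exon peaks were richer in GC than those of other peaks, as given below, and the part of base composition in this difference was not tested.

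The 5' UTR peaks had the motif more often, on small numbers. It was within 50 bp at 2 of 17 WT +Leu peaks (11.8%, 3.29 to 34.3) and at 3 of the 22 in WT -Leu (13.6%, 4.75 to 33.3). In GCN2 KO it was within 50 bp at 1 of 13 with leucine (7.69%, 1.37 to 33.3) and at 0 of 12 without, which allows a share of up to 24.2%. The shares of promoter peaks were 12.6%, 15.4%, 12.05% and 6.78%. The interval of the difference from promoters included 0 in each list and was wide, from -11.9 to 22.2 points in WT +Leu and from -11.96 to 18.3 points in WT -Leu. In WT +Leu the 5' UTR share exceeded that of the peaks outside exons and 5' UTRs by 8.93 points (0.440 to 31.5), and in GCN2 KO +Leu by 6.60 points (0.261 to 32.2), where 1 peak carried the motif. In both -Leu lists the interval of that difference included 0.

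The median score of exon peaks was 28, 28, 30 and 27.5 in the lists, beside 30, 30, 29 and 30 for all peaks, and the highest exon scores were 100, 227, 120 and 69. Scores of at least 100 were found at 1 of 267, 10 of 353, 1 of 251 and 0 of 200 exon peaks. Among all peaks of the lists they were found at 1.86%, 9.82%, 0.897% and 0.487%. In WT -Leu the exon share was 2.83% (1.55 to 5.14), under the share of all peaks. The 5' UTR peaks reached 100 at 1 of 17 in WT +Leu and at 4 of 22 in WT -Leu (18.2%, 7.31 to 38.5), and none did so in either GCN2 KO list. Promoter peaks reached it at 16.8% in WT +Leu and 28.5% in WT -Leu.

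**Figure D1:**
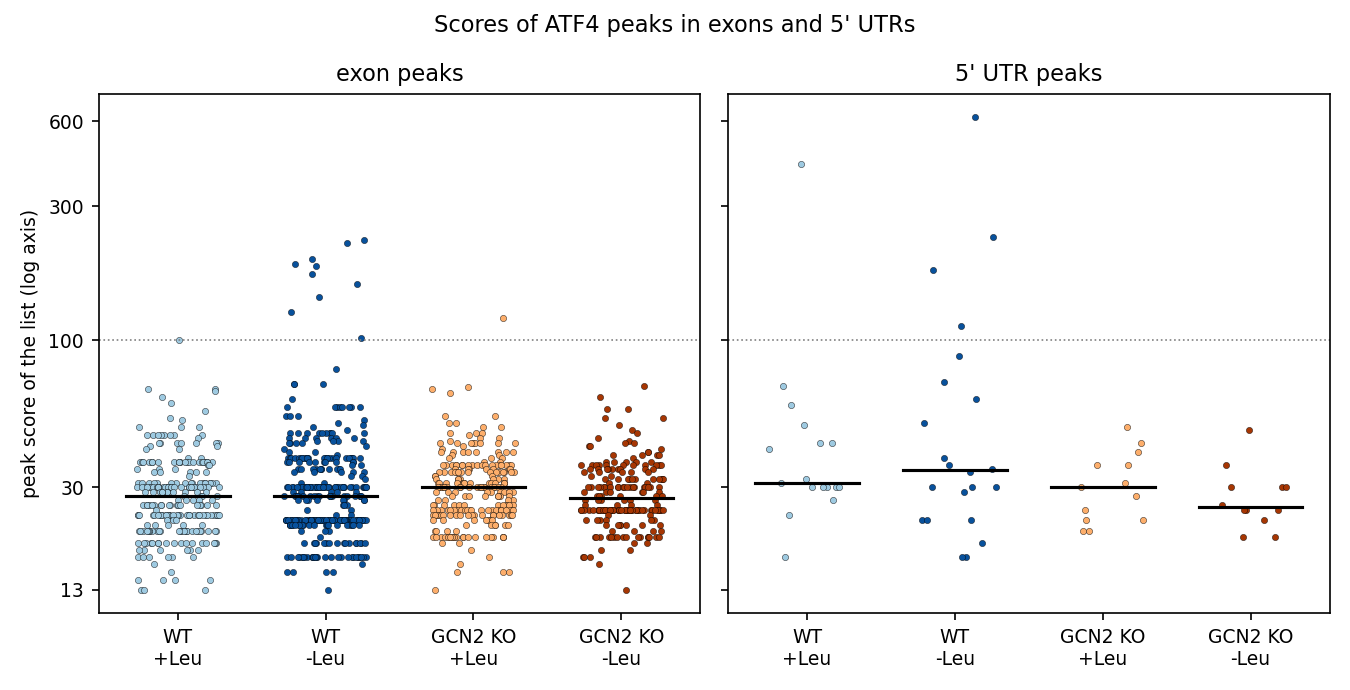
Peak score of every exon peak (left) and 5' UTR peak (right) by list, on a log axis. Each point is 1 peak, the horizontal bar is the median of the group and the dotted line marks a score of 100. Exon medians lie between 27.5 and 30 in the 4 lists, and 14 of the 17 points on or above the dotted line belong to WT -Leu.

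Within WT -Leu the share of peaks in exons and 5' UTRs was lower where the score was higher. It was 7.79% of the peaks with a score of 13 to 22 (6.27 to 9.62), 6.08% of those from 30 to 39 (5.09 to 7.25) and 2.24% of those with 100 or more (1.34 to 3.72). In WT +Leu it was 7.17% at 13 to 22 and 2.22% at 100 or more, with 2 such peaks and an interval of 0.612 to 7.74 for the latter. In GCN2 KO +Leu the share did not fall with the score below 60, with 6.93%, 7.01%, 8.28% and 7.34% in the 4 classes from 13 to 59. In GCN2 KO -Leu it was 8.32%, 9.84%, 7.41% and 5.09% in the same classes. Both GCN2 KO lists had under 50 peaks in each score class from 60 up, which is too few to place their shares. The plot of shares by score shows both genotypes side by side.

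**Figure D2:**
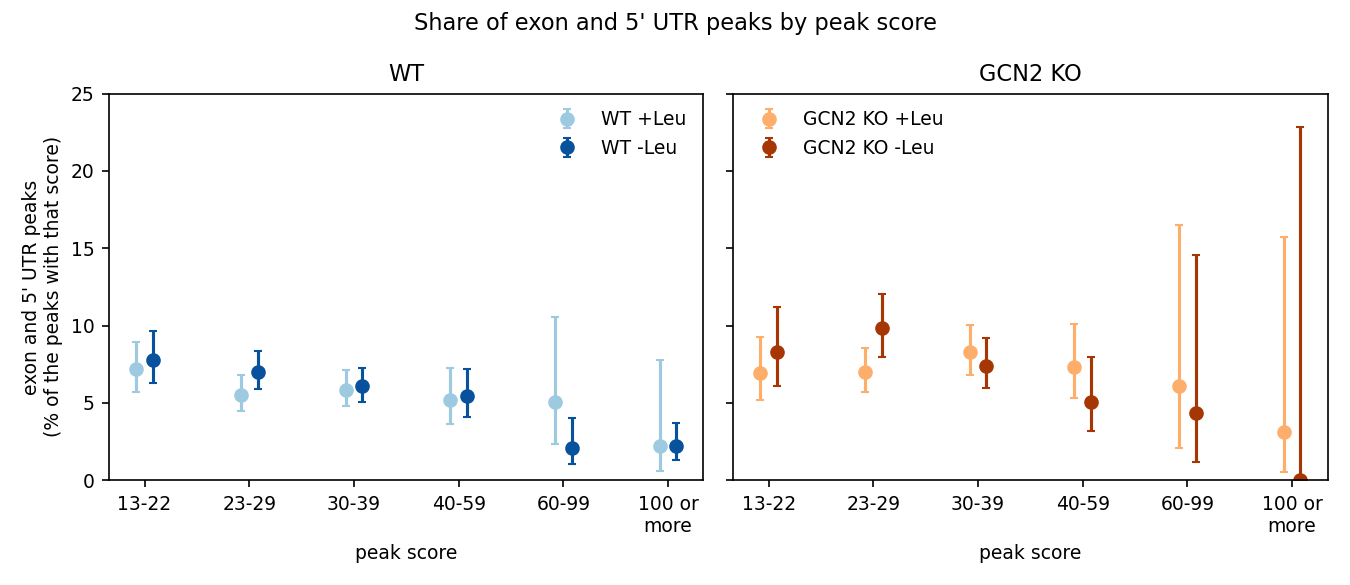
Exon and 5' UTR peaks as a percentage of all peaks in 6 classes of peak score, for WT (left) and GCN2 KO (right). Points are the share in 1 list and bars are 95% Wilson intervals of counting error. In WT -Leu the share is 7.79% at scores of 13 to 22 and 2.24% at 100 or more, while the GCN2 KO intervals at 100 or more reach 15.7% and 22.8%.

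The strongest exon and 5' UTR peaks of WT -Leu were at genes of several functions. The highest was the 5' UTR peak of Mars, the methionyl-tRNA synthetase gene, with a score of 621. Next came Nrip2, a nuclear receptor-interacting protein gene, whose 5' UTR peak scored 233. Gpx4 encodes the glutathione peroxidase that reduces lipid hydroperoxides, and its peak in exon 1 of 7 scored 227. Agk encodes a mitochondrial acylglycerol kinase, and its peak in exon 12 of 16 scored 222. Coasy, the gene for the enzyme of the last steps of coenzyme A synthesis, had a peak in exon 1 of 9 with a score of 194. A peak in exon 16 of 31 of Nomo1, which encodes a protein of the endoplasmic reticulum membrane, scored 187. The 5' UTR peak of Tmbim6, which encodes Bax inhibitor 1, lay in exon 2 of 11 and scored 177.

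Further strong WT -Leu peaks had scores between 102 and 172. Tent4b, a poly(A) polymerase gene, had 172 in exon 12 of 13, and Rps6kb1, which encodes the S6 kinase downstream of mTORC1, had 158 in exon 9 of 10. The uncharacterised gene 9430020K01Rik had 142 in exon 3 of 4, and Med12l, a Mediator subunit gene, had 126 in exon 43 of 44. Bcat1, the gene for the cytosolic branched-chain aminotransferase, had 112 in its 5' UTR, and Eif4g2, which encodes a translation initiation factor, had 102 in exon 4 of 22. Of the 14 exon and 5' UTR peaks that reached 100 in WT -Leu, 5 had the motif within 50 bp, namely Mars, Bcat1, Tent4b, 9430020K01Rik and Eif4g2. That is 35.7% (16.3 to 61.2), and among WT -Leu peaks of the same scores outside exons and 5' UTRs it was 37.9% (34.2 to 41.8). The peak of Nomo1 had TGATGNAA, with another base at position 6, and the other 8 had neither form within 50 bp.

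Strong exon and 5' UTR peaks were few in the other lists. In WT +Leu, Mars had 422, and lower scores were those of Slc6a9 (69), Svep1 (67), Scnn1b (67), Acot7 (66) and H2-Bl (63). Slc6a9 encodes a glycine transporter, Scnn1b a subunit of the epithelial sodium channel, Acot7 an acyl-CoA thioesterase and H2-Bl a class I histocompatibility antigen. In GCN2 KO +Leu, Arhgap30 had 68, Pkd1l3 67, Rrs1 65 and Col16a1 54, and the highest 5' UTR peak was that of Thap1 with 49. In GCN2 KO -Leu, Clec11a had 69, Mcm10 57 and Sh3bp2 57, and the highest 5' UTR peak was that of Lmo4 with 48. The exon peaks named here for WT +Leu and GCN2 KO had no TGATGCAA within 50 bp of the center.

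Exon and 5' UTR peaks, like all peaks of the lists, seldom recurred between +Leu and -Leu. Taking exon and 5' UTR peaks together, 16 of 284 in WT +Leu had a WT -Leu peak of any class with its center 300 bp or less away (5.63%, 3.5 to 8.95), and 6.35% of all WT +Leu peaks did. Of the 375 in WT -Leu, 12 had a WT +Leu peak at the site (3.20%, 1.84 to 5.51), against 4.85% of all WT -Leu peaks. In GCN2 KO the counts were 7 of 264 with leucine (2.65%, 1.29 to 5.37) against 2.75% of that list, and 5 of 212 without it (2.36%, 1.01 to 5.40) against 3.59%. For both classes together, each of the 4 list shares lay within the interval. The classes taken apart differed. In WT -Leu, exon peaks recurred less often than the peaks outside exons and 5' UTRs, with a difference of -2.40 points (-3.74 to -0.117). This was not particular to exons. The WT -Leu share was 2.55% for exon peaks, 2.97% for peaks in introns after the first and 3.07% for peaks at gene ends. Promoter peaks of that list recurred at 16.2% and first-intron peaks at 7.83%. In WT +Leu, 12 of 267 exon peaks recurred (4.49%, 2.59 to 7.69). There the interval of the difference from peaks outside exons and 5' UTRs included 0, as it did in both GCN2 KO lists. Of the 17 5' UTR peaks in WT +Leu, 4 recurred (23.5%, 9.56 to 47.3), a share above that of the other peaks by 17.1 points (3.14 to 40.9), and in the other 3 lists the interval of this difference included 0. Promoter peaks of WT +Leu recurred at 31.1%. The 5' UTR share differed from theirs by -7.56 points (-24.1 to 17.4), an interval that included 0. Of the 12 WT +Leu exon peaks that recurred, 7 met an exon peak, 4 an intron peak and 1 a 5' UTR peak.

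At 42 sites an exon or 5' UTR peak of 1 list had a peak of another list, of either genotype, at the same place. At 23 of them the peaks of at least 2 lists were themselves exon or 5' UTR peaks. At 33 sites the highest score in any list was under 60, and 6 sites reached 100. The same counts for sites of all peaks are not given here, so these numbers do not set exon and 5' UTR peaks apart. WT +Leu and WT -Leu shared 20 of the sites, and the score was higher in -Leu at 16, lower at 3 and equal at 1. Of the 308 WT +Leu peaks of any class with a WT -Leu partner, 252 had a higher score in -Leu (81.8%), 48 a lower and 8 an equal one. The GCN2 KO lists shared 7 of the sites, with a higher score in -Leu at 1 and a lower score at 6. Among the 98 GCN2 KO +Leu peaks of any class with a partner, the score in -Leu was higher at 45 (45.9%), lower at 48 and equal at 5. Scores were not scaled between libraries, and these counts describe the listed values only.

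The 5' UTR peak of Mars was the strongest exon or 5' UTR peak of either WT list. It scored 422 in WT +Leu, 621 in WT -Leu and 43 in GCN2 KO +Leu, and no peak was listed there in GCN2 KO -Leu. Its rank was 11 of 4850 in WT +Leu, 64 of 6374 in WT -Leu and 268 of 3566 in GCN2 KO +Leu. The 3 centers fell within 17 bp of each other, on the window printed above. Bcat1 had scores of 50 in WT +Leu and 112 in WT -Leu, with centers 20 bp apart, and no peak at the site in GCN2 KO. Adm2, which encodes the peptide hormone adrenomedullin 2, had a peak in exon 2 of 3 that scored 70 in WT -Leu and 43 in GCN2 KO +Leu. Its center was 392 bp from the TSS in WT -Leu.

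At 5 sites the peak was a 5' UTR peak in 1 list and a promoter peak in another. The centers called 5' UTR lay 104 bp or more downstream of the TSS, and those called promoter 88 bp or less. Slc6a9 was a 5' UTR peak in WT +Leu (69, with the center 201 bp from the TSS) and a promoter peak in WT -Leu (115, at 88 bp). Trim66 was a 5' UTR peak in WT +Leu (41, at 144 bp) and a promoter peak in WT -Leu (233, at -3 bp). Slc1a4, the gene for a neutral amino acid transporter, was a promoter peak in WT +Leu (37, at 21 bp) and WT -Leu (160, at 22 bp), and a 5' UTR peak in GCN2 KO +Leu (28, at 195 bp). Lmo4, a LIM-domain cofactor gene, was a promoter peak in WT +Leu (45) and WT -Leu (96) and a 5' UTR peak in GCN2 KO -Leu (48, at 104 bp). Spz1 was a 5' UTR peak in WT +Leu and a promoter peak in GCN2 KO +Leu, with a score of 43 in each. Such sites are not counted as exon or 5' UTR peaks in the lists where the center fell in the promoter.

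Sites of exon peaks farther from the TSS mostly had low scores. Pkd1l3, which encodes a polycystin-like protein, had 18 in WT +Leu and 67 in GCN2 KO +Leu in exon 13 of 32. Hivep1, a zinc finger protein gene, had 58 in WT -Leu and 45 in GCN2 KO -Leu. Atp10d, a lipid flippase gene, had 17 in WT +Leu and 47 in WT -Leu. Itln1, an intelectin gene, had 45 with leucine and 32 without leucine in GCN2 KO. Klhl22, which encodes a ubiquitin ligase adaptor, had an exon peak of 24 in WT +Leu and a 5' UTR peak of 51 in WT -Leu. At the other sites shown with an exon peak, whose partner was an exon or an intron peak, scores lay between 15 and 54, and none had TGATGCAA in its windows.

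**Figure D3:**
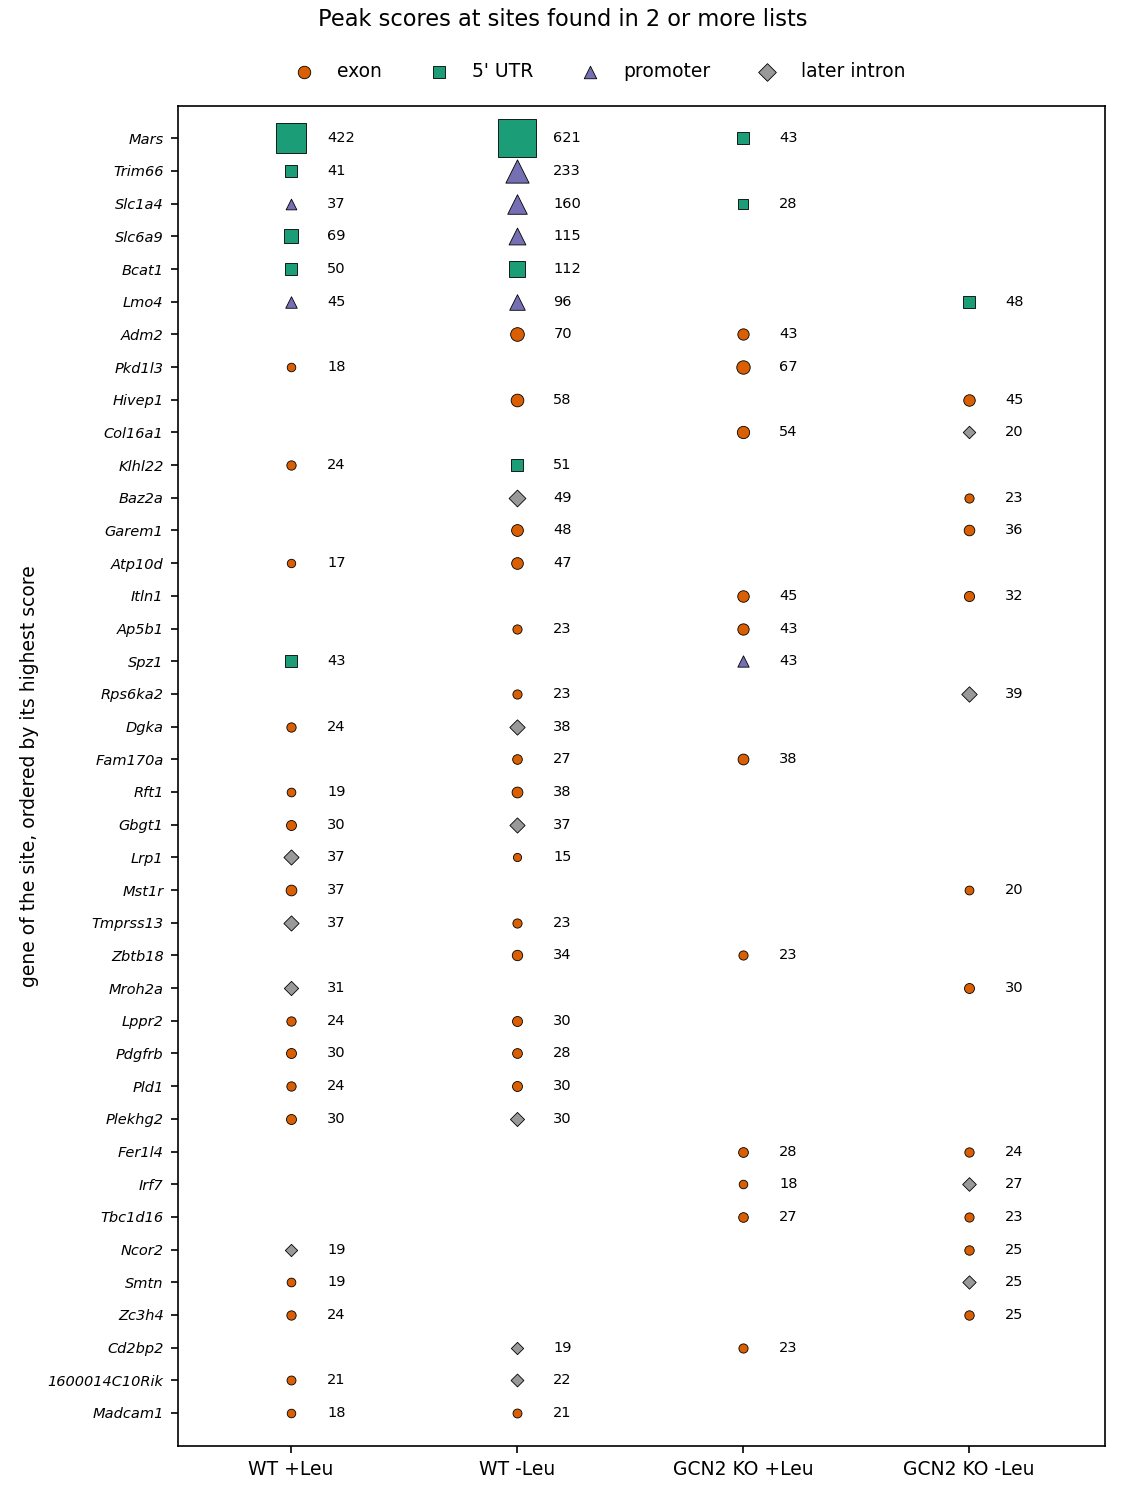
Peak scores at 40 of the 42 sites where an exon or 5' UTR peak of 1 list had a peak of any class 300 bp or less away in another list. Rows are sites named by gene and ordered by their highest score, columns are the 4 lists, the marker gives the class, its area grows with the score and the number beside it is the score; an empty cell means no peak. Mars has the highest scores, 422 and 621 in the WT lists, and 32 of the rows stay under 60.

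The transcripts of 1117 peaks could be matched to a gene, and these were 278, 357, 243 and 206 genes in the lists, or 1009 in all. An exon or 5' UTR peak was found in 1 list for 942 genes and in 2 or more lists for 67. The WT lists shared 18 genes, 6.47% of the WT +Leu genes and 5.04% of the WT -Leu genes. The GCN2 KO lists shared 11 genes, 4.53% of the +Leu genes and 5.34% of the -Leu genes. By site, 6.35%, 4.85%, 2.75% and 3.59% of all peaks had a partner in the other leucine condition. The overlap of genes over all peaks is not given here, so these gene counts do not set exon and 5' UTR peaks apart. Of the 67 genes in 2 or more lists, 21 had peaks at a common site and 46 had them at different places in the gene. Genes in 3 lists were Mars, Dst, Greb1, Pkd1l3, Plec and Zc3h4. Dst and Plec encode large cytoskeletal linker proteins, and their peaks lay in exons of 5292 and 7412 bases among others, with scores from 21 to 41. Dync1h1, the heavy chain of cytoplasmic dynein, had 3 exon peaks in WT -Leu with scores from 17 to 79, and Mroh2a had 3 in GCN2 KO -Leu.

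Over the 4 lists, internal exons held a larger share of exon peaks than of coding bases, and transcripts with 1 exon a smaller share. Internal exons held 75.7% (70.2 to 80.4), 75.9% (71.2 to 80.1), 73.7% (67.9 to 78.8) and 77.5% (71.2 to 82.7) of the exon peaks. In all it was 75.6% (73.0 to 78.1). Of the coding bases of 21000 genes, 70.8% are in internal exons, a share that lay below the interval in both -Leu lists and inside it in both +Leu lists. The last of several exons held 18.0%, 15.3%, 15.9% and 18.0% of exon peaks, against 17.2% of coding bases. The first of several held 4.49%, 5.95%, 5.98% and 2.50%, against 6.07% of coding bases, of which the stretch next to the TSS counts as promoter in the lists. The only exon of a transcript held 5 of 267, 10 of 353, 11 of 251 and 4 of 200 exon peaks, or 2.80% over the lists (1.97 to 3.97), against 5.93% of coding bases. There too the stretch next to the TSS counts as promoter in the lists, while the coding bases include it. The part of this rule in the shares of internal and only exons was not tested. Coding bases were counted in the transcript with the longest coding sequence of each gene, and exon peaks in the transcript that the lists name. The part of that difference was not tested either. Over the 4 lists, exon peaks in the first of several exons had a median GC content of 59.1%, and those in internal exons 55.8%. None of the 53 exon peaks in the first of several exons or the 30 in an only exon recurred in the other leucine condition or had the motif within 50 bp. Of the 810 in internal exons, 27 recurred and 6 had the motif. Of the 178 in the last of several exons, 6 recurred and 2 had it. Counts this small do not set first or only exons apart.

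**Figure D4:**
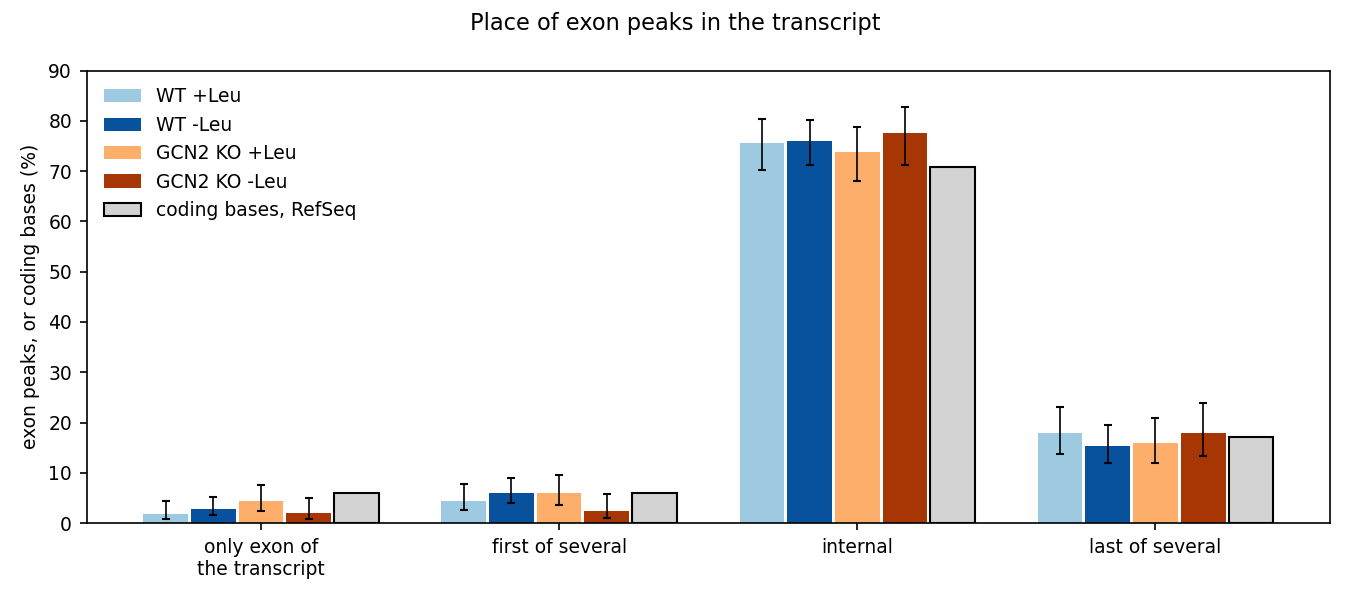
Exon peaks by their place in the transcript, as a percentage of the exon peaks of each list, beside the coding bases of RefSeq transcripts (grey, 1 transcript per gene). Bars start at 0 and error bars are 95% Wilson intervals of counting error. Internal exons hold between 73.7% and 77.5% of exon peaks and 70.8% of coding bases.

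The peaks were often wider than the exon they were assigned to. The median length of the exon was 208.5, 230, 248 and 215 bases, and 60.2%, 56.4%, 55.6% and 60.3% of the exons were shorter than the window of 301 bases. The median transcript had 13 exons in each list, and the largest exon number was 215 of 313, in GCN2 KO -Leu. Along the coding sequence, the median position was 49.6%, 54.0%, 46.3% and 54.5% of its length. All 64 5' UTR peaks lay in exon 1 or 2, with exon 1 at 15 of 17, 14 of 22, 8 of 13 and 8 of 12.

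Distance to the TSS differed between the classes, which their definition fixes in part, since a 5' UTR lies at the start of its transcript. The median distance of exon peaks was 11945 bp (8483 to 13735), 10332 bp (8678 to 12955), 9317 bp (7486 to 12539) and 11282 bp (8452 to 14716). For 5' UTR peaks it was 153 bp, 296 bp, 378 bp and 297 bp. The 5' UTR class is bounded near the TSS by the promoter class, and the closest exon or 5' UTR peak of any list was 101 bp away, the 5' UTR peak of Wfs1 in WT -Leu. Wfs1 encodes wolframin, a protein of the endoplasmic reticulum, and this peak had a score of 71. Within 1 kb of a TSS lay 23 of 267, 28 of 353, 28 of 251 and 13 of 200 exon peaks. More than 50 kb away lay 32, 43, 21 and 24 exon peaks.

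The nearest TSS often belonged to another gene than the exon. Of the exon peaks with a known host gene, 35.8%, 35.5%, 32.5% and 41.2% had the TSS of another gene nearest. For 5' UTR peaks this was so at 0 of 17, 1 of 22, 1 of 13 and 0 of 12. The exon peak of Agk is listed under E330009J07Rik, that of Tent4b under Adcy7, that of Med12l under Igsf10 and both exon peaks of Vars under Vwa7. The gene names given here are those of the transcript that holds the peak.

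Exon peaks were richer in GC than the peaks outside exons and 5' UTRs. The median GC content of exon peaks was 55.8% in WT +Leu (54.8 to 56.5), 55.8% in WT -Leu (55.1 to 56.5). In GCN2 KO it was 56.5% with leucine (55.5 to 57.1) and 56.1% without leucine (55.5 to 57.1). The other peaks had medians of 51.5%, 51.8%, 52.5% and 52.8%, outside these intervals in each list. Promoter peaks had a median of 56.1% in each list, and first-intron peaks had lower ones. The pooled GC content of coding exon and 5' UTR bases in the reference is 52.8%. The 5' UTR peaks had medians of 53.8% (52.5 to 58.8), 59.8% (55.1 to 62.5), 62.5% (58.1 to 66.8) and 59.5% (54.2 to 69.1). The CpG content, the share of CpG in the window, had a median of 2.33% to 2.67% in exon peaks and 1.33% in the peaks outside exons and 5' UTRs.

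**Figure D5:**
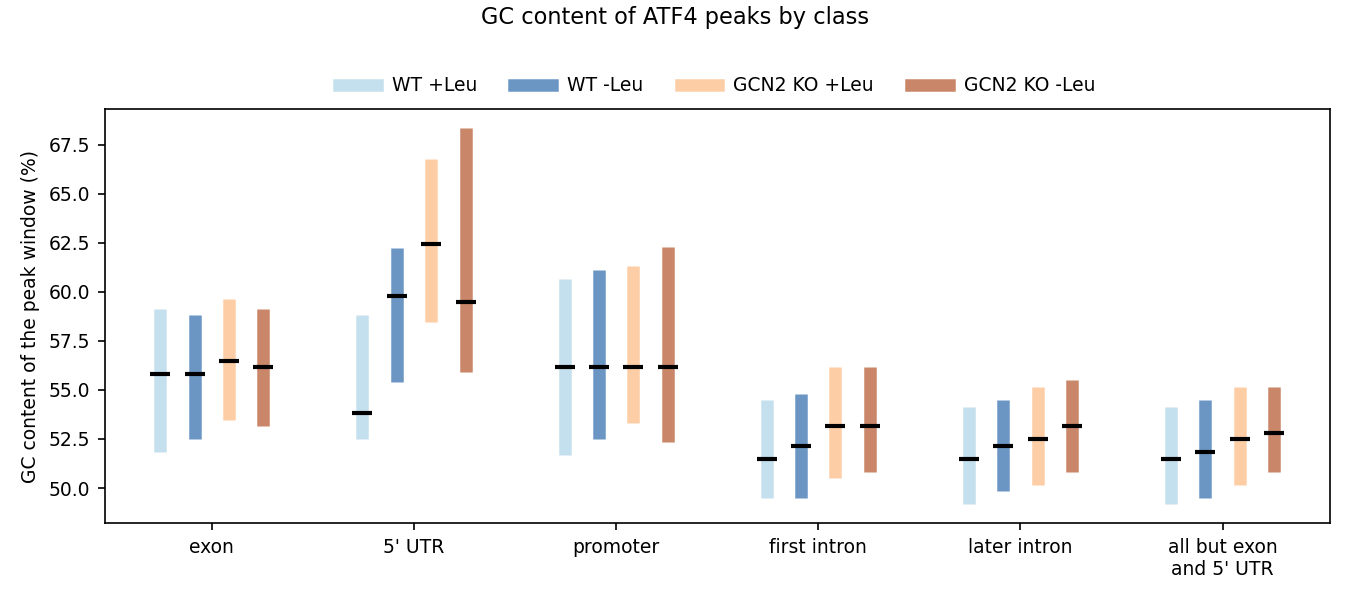
GC content of the 301-base peak window by class and list. Each colored line spans the lower to the upper quartile of the peaks and the black mark is the median; the axis does not start at 0. Exon medians lie between 55.8% and 56.5%, above those of the peaks outside exons and 5' UTRs, which lie between 51.5% and 52.8%.

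The 1009 genes with an exon or 5' UTR peak in any list compare with 21000 genes that have a curated mRNA, a share of 4.80%. The counts of the gene groups below are descriptions to be set beside this share, and their intervals are Wilson intervals over genes. Of 38 aminoacyl-tRNA synthetase genes, 3 had such a peak (7.89%, 2.72 to 20.8). Mars has been described, Vars (valyl-tRNA synthetase) had exon peaks of 44 and 22 in WT -Leu, and Aars (alanyl-tRNA synthetase) had an exon peak of 17 in WT -Leu. Of 28 amino acid transporter genes, Slc6a9 and Slc1a4 had a 5' UTR peak (7.14%, 1.98 to 22.6). Of 37 genes of amino acid synthesis and the integrated stress response, Cebpg, a bZIP factor gene, had an exon peak of 27 in GCN2 KO -Leu. Bcat1 was not on that list. Of 52 bZIP factor genes, Cebpg, Mafg (24 in WT +Leu) and Atf6b (18 in GCN2 KO -Leu) had an exon peak.

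Of 45 genes of TOR signaling and autophagy, 4 had an exon peak (8.89%, 3.51 to 20.7) and none a 5' UTR peak. Rps6kb1 had 158 in WT -Leu, and Ulk1, the kinase gene that starts autophagy, had 58 in WT -Leu in exon 19 of 28. Fnip2, a folliculin partner gene, had 19 in WT -Leu, and Tsc1, a gene of the complex that restrains mTORC1, had 26 in GCN2 KO -Leu. None of the 4 peaks had TGATGCAA within 50 bp, and none had a partner in the list of the other leucine condition. Among all WT -Leu peaks 6.95% had the motif and 4.85% a partner, and among all GCN2 KO -Leu peaks 1.09% and 3.59%. The lack of both at 4 peaks thus does not set these genes apart. The highest peaks of Mars, Vars and Aars in WT -Leu ranked 64, 1681 and 5850 of 6374, so that Aars was near the end of its list.

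The counts of large gene families are given beside the same share of all genes, 4.80%. Zinc finger genes (Zfp) had exon or 5' UTR peaks at 24 of 400 genes (6%), with the highest at Zfp318 (45 in WT -Leu). Olfactory receptor genes had them at 10 of 1110 (0.901%), with the highest at Olfr699 (38 in WT -Leu), and 9 of the 10 peaks were in the only exon of the transcript. Collagen genes had them at 7 of 44 (15.9%, 7.93 to 29.4), with the highest at Col16a1 (54 in GCN2 KO +Leu). Keratin genes had them at 5 of 53 (9.43%, 4.10 to 20.3), with the highest at Krt77 (40 in GCN2 KO +Leu). There was 1 of 69 protocadherin genes, Pcdhga12 (19 in WT -Leu), and 1 of 96 histone genes, Hist4h4 (34 in WT -Leu). None of 169 ribosomal protein genes had such a peak in any of the 4 lists. Counts in families with near-identical copies are uncertain, since reads may align to more than 1 copy. The shares are per gene and were not adjusted for coding length or number of exons, which differ between families.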

How the data were processed

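ATF4 ChIP-seq of WT and GCN2 KO MEFs grown +Leu or -Leu gave 4 annotated peak lists, 1 per condition; the 2 input libraries were not used here. Per the submitters' processing notes and the study's methods, the authors used fastx for read trimming and BWA (0.7.12) for alignment to mm10, called peaks with MACS2 (2.1.0, --nomodel) against input of the same genotype and annotated summits ±150 bp with HOMER (4.7). The deposited score is the authors' whole number per peak, without scaling between libraries. The deposited distance is in bp to the nearest TSS. GC and CpG content were deposited as a fraction of the bases of the window and are given here in percent.

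Peaks were taken whose annotation begins with exon or 5' UTR. Those peaks and the gene lists were chosen with earlier results of these data known. Host genes came from the RefSeq annotation of GRCm38.p6, which mm10 names, by the listed transcript. Its sequence was used after a check in which the listed GC content equalled the reference value at every peak on the assembled chromosomes. Peaks were at the same site where no more than 300 bp separated the centers. TGATGCAA was searched on both strands within 50 bp of the center. The genes named are the 5 exon and 3 5' UTR peaks with the highest scores in each list, those with exon or 5' UTR peaks of 2 or more lists at a site, up to 10 peaks with TGATGCAA per list, and the members of the gene lists; other genes were named after their values had been seen. Some results that fall under this rule are not reported here.

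Shares carry 95% Wilson intervals, differences of shares Newcombe intervals and medians order-statistic intervals, all for counting error within a library. With 1 library per condition no test between conditions was made. The alternatives were a score of 30 or more, lists of equal length, assembled chromosomes only, each class alone and the reference annotation. In another, exon and 5' UTR peaks within 1 kb of a TSS were left out and all other peaks were kept. The rest were distances of 100 and 1000 bp, a motif window of 150 bp, any base at motif position 6, 1 peak per gene and transcripts with 1 exon left out. The overlap, motif and interval steps were tested on simulated data. The tools were samtools 1.23.1 and Python 3.11.15 with pysam 0.24.0, pandas 2.3.3, numpy 2.4.6, matplotlib 3.10.9 and scipy 1.17.1.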

Additional observations from a re-analysis of the deposited data

Results flagged for a closer look

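The leucine contrast ran in opposite directions in WT and GCN2 KO for 5 counts, each from 1 library per condition, so that the difference between the genotypes was not tested. Exon and 5' UTR peaks together numbered 284 with leucine and 375 without leucine in WT, and 264 and 212 in GCN2 KO. Exon peaks numbered 267 and 353 in WT, and 251 and 200 in GCN2 KO. The 5' UTR peaks numbered 17 and 22 in WT, and 13 and 12 in GCN2 KO. Peaks of both classes with a score of 100 or more numbered 2 and 14 in WT, and 1 and 0 in GCN2 KO. Those with TGATGCAA within 50 bp of the center numbered 2 and 9 in WT, and 2 and 1 in GCN2 KO. The lengths of the lists ran in the same opposite directions, 4850 and 6374 in WT and 3566 and 2672 in GCN2 KO. So did the counts over all peaks. Scores of 100 or more were found at 90 and 626 peaks in WT, and at 32 and 13 in GCN2 KO. The motif lay within 50 bp at 131 and 442 peaks in WT, and at 38 and 29 in GCN2 KO. The directions were thus not particular to exon and 5' UTR peaks.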

How the results depend on the processing

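No paired analysis was possible because each condition had 1 library. Of 164 values under the alternatives, 113 stayed within the interval of the reported value, or within 1.5 times it for a count. With the 2672 strongest peaks of each list, the ratio of -Leu to +Leu went from 1.32 to 0.803 in WT (0.630 to 1.02) and from 0.803 to 1.07 in GCN2 KO (0.882 to 1.30), both intervals including 1, and the WT -Leu share fell to 4.42%.

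In 1 alternative, exon and 5' UTR peaks within 1 kb of a TSS were not counted, while all peaks of the list stayed in the total. The share of the list was then 5.07% in WT +Leu, 5.22% in WT -Leu and 6.37% in GCN2 KO +Leu, a fall that this setting fixes in advance. With a score of 30 or more it was 4.88% in WT -Leu and 6.68% in GCN2 KO -Leu. By the reference annotation it was 6.84% in WT +Leu, 7.10% in WT -Leu and 9.07% in GCN2 KO -Leu. The 5' UTR peaks alone made up 0.351%, 0.345%, 0.365% and 0.449% of the lists.

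Recurring peaks fell from 16 to 9 in WT +Leu and from 12 to 7 in WT -Leu with a distance of 100 bp, and rose from 7 to 11 in GCN2 KO +Leu with 1000 bp. With a score of 30 or more they numbered 7, 3, 3 and 3 in the 4 lists. In WT +Leu 10 had a partner that was an exon or 5' UTR peak.

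The motif share of WT +Leu was 0% in exon peaks and 11.8% in 5' UTR peaks alone, and in 5' UTR peaks alone it was 13.6%, 7.69% and 0% in the other lists. With a score of 30 or more it was 4.95% in WT -Leu. The 5' UTR peaks alone had a median GC content of 53.8%, 59.8%, 62.5% and 59.5%, a median score of 31 in WT +Leu and 34.5 in WT -Leu, and a median distance of 153, 296, 378 and 297 bp. With a score of 30 or more the median score was 35, 38, 35 and 35, which the threshold itself raises, and the median GC content of WT +Leu was 54.3%. Without peaks within 1 kb of a TSS the median distance was 13225 bp in WT +Leu, 11602 bp in WT -Leu and 12396 bp in GCN2 KO +Leu. Without transcripts of 1 exon, 6.12% of exon peaks in WT -Leu and 6.25% in GCN2 KO +Leu were in the first exon. Genes in 2 or more lists numbered 16 with a score of 30 or more, and 171 when a peak of any class within 5 kb of the TSS counted in the other list. The cause of these shifts was not tested beyond what each alternative leaves out. Unknown depth limits comparisons of counts between libraries.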
